A study of Mus musculus with 12 samples.

Results

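Creatine metabolism was described through 7 of the 56748 genes in the table, chosen by name: Gatm and Gamt, which make creatine, Slc6a8, which imports it, and the creatine kinases Ckb, Ckm, Ckmt1 and Ckmt2. The set was proposed with its levels in these libraries known, so the differences of these genes between groups are descriptions without a test. The cells belong to 4599, a melanoma line of mouse, and were sequenced as 12 libraries, 3 in each of 4 groups. Cells of TB, PIF and DIF were derived from orthotopic melanomas and those of Met from lung metastases; the abbreviations are kept as the labels write them. All groups were grown on bovine dermal collagen (fibrillar, 1.7 mg/ml), first for 24 h with 10% serum and then for 24 h with 1% serum, so differences were read in culture on 1 shared substrate. The labels name no separate animals behind the 3 libraries of a group, and p-values therefore measure only the spread between these libraries, which may be technical.

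Creatine is built in a pair of steps. Gatm, a mitochondrial amidinotransferase, moves the amidino group of arginine to glycine and yields guanidinoacetate and ornithine. Gamt then methylates guanidinoacetate with S-adenosylmethionine. Slc6a8 carries creatine into the cell together with sodium and chloride. Creatine kinases pass phosphate between ATP and creatine: Ckb is the brain-type and Ckm the muscle-type cytosolic enzyme, Ckmt1 the ubiquitous and Ckmt2 the sarcomeric mitochondrial enzyme. In the body, kidney is rich in Gatm and liver in Gamt, while brain and muscle take up and use creatine.

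The sequences around the start of 3 measured genes are shown because these genes differ widely in level and in pattern across the groups. The RefSeq promoter table (GRCm38.p6) matched 6 of the 7 genes, all but Slc6a8. Each sequence runs from 250 bases before the annotated start to 50 bases after it, on the strand of the gene. Capitals mark matches on either strand to the TATA box (TATAAA), the box named by its letters CCAAT, the GC box (GGGCGG), the E-box (CACGTG) and the amino acid response element (TGATGNAA), and no matches overlapped here. They are those of Gatm (chr2:122611228-122611527, minus strand), Gamt (chr10:80260963-80261262, minus strand) and Ckb (chr12:111672289-111672588, minus strand).
Gatm: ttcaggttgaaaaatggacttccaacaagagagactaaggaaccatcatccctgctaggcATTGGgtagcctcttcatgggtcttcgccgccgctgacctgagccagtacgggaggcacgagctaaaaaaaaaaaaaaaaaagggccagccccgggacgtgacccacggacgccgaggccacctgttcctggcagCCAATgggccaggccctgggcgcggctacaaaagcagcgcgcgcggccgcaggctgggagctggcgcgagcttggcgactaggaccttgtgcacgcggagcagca
Gamt: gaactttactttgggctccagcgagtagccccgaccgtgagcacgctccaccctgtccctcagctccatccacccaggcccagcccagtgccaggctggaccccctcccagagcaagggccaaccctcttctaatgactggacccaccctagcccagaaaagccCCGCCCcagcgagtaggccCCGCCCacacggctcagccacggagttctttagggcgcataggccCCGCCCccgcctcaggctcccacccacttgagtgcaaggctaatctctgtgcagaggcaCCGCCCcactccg
Ckb: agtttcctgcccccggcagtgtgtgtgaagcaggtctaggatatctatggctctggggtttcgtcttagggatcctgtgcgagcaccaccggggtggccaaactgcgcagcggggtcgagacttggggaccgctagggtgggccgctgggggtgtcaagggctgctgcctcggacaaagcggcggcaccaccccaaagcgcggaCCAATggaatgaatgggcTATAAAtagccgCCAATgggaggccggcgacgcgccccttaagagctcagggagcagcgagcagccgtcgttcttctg

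The Ckb promoter held 1 TATAAA at 28 bases before the start and 2 CCAAT matches, at 46 and 16 bases before it. Gatm held 2 CCAAT matches, at 190 and 55 bases before the start, and no TATAAA. Gamt held 4 GC boxes and neither of those motifs. CACGTG and TGATGNAA had no match in these windows. Of 32851 promoters of the same length, 13.6% held TATAAA, 37.4% CCAAT, 35.7% GGGCGG, 7.15% CACGTG and 3.97% TGATGNAA. A match is a run of letters and not a measured binding site. The deposited gene positions given below do not reach these GRCm38.p6 windows, so both sets of positions cannot be compared.

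Levels are in FPKM, fragments scaled to gene length and library size, which can be compared between genes. The reads rebuilt from them numbered 15545322 to 18366700 per library. Of the 7 genes, 4 passed the mean of 0.5 FPKM that 12661 genes passed for testing. The cells were checked against marker lists. Sox10, a factor of neural crest and melanocytes, was at 203 to 269 FPKM in all libraries, whereas the pigment gene Tyrp1 was at 0 in all of them and Tyr and Dct reached at most 0.0325 and 0.139 FPKM.

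Gatm, the first enzyme of the pathway (ENSMUSG00000027199, chromosome 2, 122424948 to 122441784, minus strand, in the deposited table, whose genome build is not given in the sources used here), was highest in the metastasis group. The Met libraries were at 24.6, 24.8 and 24.4 FPKM. TB libraries were at 3.52, 3.89 and 3.59 FPKM, PIF libraries at 3.31, 2.96 and 2.78 and DIF libraries at 3.96, 3.43 and 3.85. All 3 Met values lay far above the other 9, the highest of which was 3.96 in a DIF library.

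Mean Gatm levels were 24.6 ± 0.238 FPKM in Met, 3.74 ± 0.279 in DIF, 3.67 ± 0.195 in TB and 3.02 ± 0.270 in PIF (SD, n = 3). The Met mean was 6.71 times that of TB, 6.57 times that of DIF and 8.15 times that of PIF. DIF and TB overlapped, and the 3 PIF values lay below all TB and DIF values. On the log2(FPKM + 1) scale the difference of Met from TB was 2.46 (SE 0.07) and that of PIF from TB -0.22 (SE 0.07). Met libraries held 1341 to 1366 rebuilt reads of Gatm and the other libraries 150 to 210. In bulk RNA, a change in the share of cells that express a gene cannot be told apart from a change in RNA per cell.

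Among the tested genes, 387 (3.06%) had all 3 Met values above the other 9 libraries. Ranked by the smallest log2 difference of Met from any other group, Gatm stood at place 2 with 2.43, a description of the value it was chosen for.

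Markers of tissues that hold Gatm or surround a lung metastasis are given beside this level. The 6 genes of kidney proximal tubule and liver summed to at most 0.00653 FPKM in a Met library, with Apoa1, Slc22a6 and Slc34a1 at 0 in all 12 libraries. The 6 lung epithelial genes summed to 0.0249 to 0.255 FPKM in Met, 0.0123 to 0.152 in TB, 0 to 0.139 in PIF and 0.0272 to 0.148 in DIF, with Sftpa1 at 0 throughout. Both lists were far below Gatm in every Met library. The 8 fibroblast genes summed to 7.87 to 9.96 FPKM in Met and 10.7 to 11.4 in TB. The 8 leukocyte genes summed to 0.978 to 1.23 FPKM in Met and 1.56 to 2.42 in TB, with Adgre1, Cd3e and Itgam at 0. The 4 endothelial genes, none at 0 throughout, summed to 0.0175 to 0.0712 FPKM in Met and 0 to 0.0320 in TB. The fibroblast and leukocyte sums were thus lower in Met than in TB, and the endothelial sum was higher on average, with overlap. Most of the fibroblast sum was Col3a1, at 7.09 ± 0.664 FPKM in Met and 10.6 ± 0.386 in TB. The weakly detected Col1a1, Pdgfra, Pdgfrb, Thy1, Dcn and Col1a2 had higher means in Met than in TB, and Lum was at 0 in both groups. The part of these markers in the level of Gatm was not tested.

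Gamt, the methyltransferase of the second step (ENSMUSG00000020150, chromosome 10, 80093985 to 80096846, minus strand), had a different pattern. It was measured at 28.1, 28.7 and 32.3 FPKM in TB and 23.9, 24.7 and 24.4 in PIF. DIF libraries were at 31.7, 33.0 and 34.9 FPKM and Met libraries at 30.0, 32.6 and 30.5. All 3 PIF values lay below the other 9, and Met was within the range of the other groups.

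The order of the Gamt means was DIF (33.2 ± 1.59 FPKM), Met (31.0 ± 1.38), TB (29.7 ± 2.29) and PIF (24.3 ± 0.401; SD, n = 3). DIF overlapped Met and TB, and Met overlapped TB. The highest group mean was 1.36 times the lowest, against 8.15 times for Gatm. On the log2(FPKM + 1) scale PIF differed from TB by -0.28 (SE 0.06), and Met differed from TB by 0.06 (SE 0.06).

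The balance of both enzymes was compared within each library. The ratio of Gatm to Gamt was 0.794 ± 0.0296 in Met, 0.124 ± 0.0129 in PIF, 0.124 ± 0.0122 in TB and 0.113 ± 0.0108 in DIF (SD, n = 3). Gatm and Gamt RNA were thus close to each other in Met, while Gatm was well below Gamt in the other groups. PIF was low for both genes, and its ratio overlapped those of TB and DIF.

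**Figure D1:**
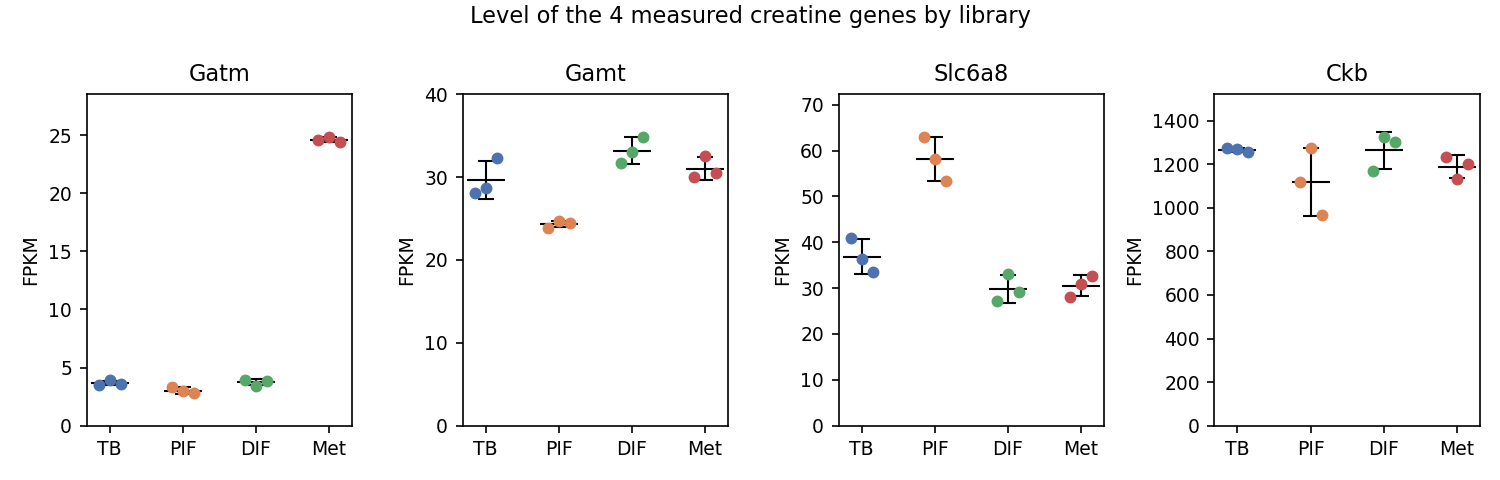
FPKM of Gatm, Gamt, Slc6a8 and Ckb in each of the 12 libraries (points, 3 per group), with the group mean and SD; each panel has its own scale. The 3 Met libraries stand at 24.4 to 24.8 FPKM for Gatm with the other 9 at or below 3.96, and PIF is highest for Slc6a8 and lowest for Gamt.

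Slc6a8, the creatine transporter (ENSMUSG00000019558, chromosome X, 72716756 to 72726108, plus strand), was highest in PIF. The PIF libraries were at 63.0, 58.3 and 53.4 FPKM. TB libraries were at 40.9, 36.3 and 33.4 FPKM, DIF libraries at 27.2, 33.1 and 29.1 and Met libraries at 28.0, 31.0 and 32.7. PIF overlapped no other group, TB lay just above DIF and Met, and DIF and Met overlapped.

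Mean Slc6a8 levels were 58.2 ± 4.79 FPKM in PIF, 36.9 ± 3.77 in TB, 30.6 ± 2.38 in Met and 29.8 ± 3.04 in DIF (SD, n = 3). The PIF mean was 1.58 times that of TB, 1.91 times that of Met and 1.95 times that of DIF. On the log2(FPKM + 1) scale PIF differed from TB by 0.65 (SE 0.10), DIF from TB by -0.30 (SE 0.10) and Met from TB by -0.26 (SE 0.10). All 3 PIF values exceeded the other 9 libraries in 837 tested genes (6.61%). The group with the most transporter RNA was the one with the least Gatm and Gamt RNA.

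The 10 melanocyte genes also summed highest in PIF, at 409 to 472 FPKM in PIF, 311 to 375 in TB, 214 to 254 in DIF and 218 to 247 in Met. This order was that of Gpnmb, a lysosomal glycoprotein also found in macrophages, at 170.3 ± 25.3 FPKM in PIF and 93.5 ± 3.44 in TB (SD, n = 3), with a smaller gap for Sox10, at 249 ± 26.3 and 230.4 ± 28.3. Mitf, the melanocyte master regulator, was lower in PIF, at 11.1 ± 2.41 against 15.2 ± 0.622 FPKM. Of the weakly detected genes of the list, Mlana, Kit, Slc45a2 and Tyr had lower means in PIF than in TB and Pmel and Dct higher ones, and Tyrp1 was at 0. The 8 leukocyte genes summed to 1.57 to 3.08 FPKM in PIF, 1.56 to 2.42 in TB, 0.744 to 1.24 in DIF and 0.978 to 1.23 in Met, most of it Cd68. The 8 fibroblast genes, none of them at 0 throughout, summed to 5.58 to 8.98 FPKM in PIF and 10.7 to 11.4 in TB. In DIF they summed to 10.9 to 16.0 FPKM and in Met to 7.87 to 9.96. Their sum was lowest on average in PIF, as Gamt was. Most of it was Col3a1, at 6.86 ± 1.72 FPKM in PIF and 10.6 ± 0.386 in TB. Of the weakly detected others, Col1a1 and Pdgfrb had their lowest means in PIF, Pdgfra and Dcn their highest. Col1a2 was lowest in TB, and Thy1 and Lum were at 0 in PIF and TB. The part of these markers in the levels of Slc6a8 and Gamt was not tested.

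The ratio of Slc6a8 to Gatm was 19.3 ± 0.336 in PIF, 10.1 ± 1.33 in TB, 8.04 ± 1.46 in DIF and 1.24 ± 0.102 in Met (SD, n = 3). Transporter RNA exceeded Gatm RNA in every library, by least in Met. The ratio of Slc6a8 to Gamt was 2.40 ± 0.227 in PIF, 1.25 ± 0.211 in TB, 0.986 ± 0.0746 in Met and 0.899 ± 0.0912 in DIF. PIF stood above the other groups in both ratios, and DIF and Met overlapped in the second.

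**Figure D2:**
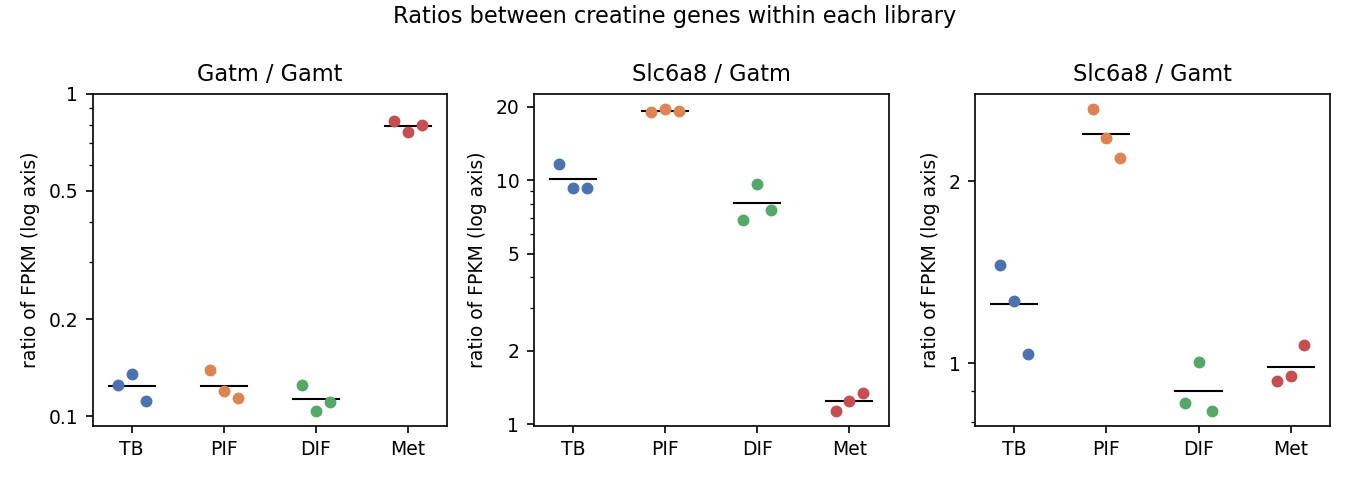
Ratio of the FPKM of 2 creatine genes within each library (points, 3 per group) on a log axis, with the group mean. Gatm over Gamt averages 0.794 in Met and 0.113 to 0.124 elsewhere, and Slc6a8 over Gatm averages 19.3 in PIF and 1.24 in Met.

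Ckb, the brain-type creatine kinase (ENSMUSG00000001270, chromosome 12, 111635795 to 111638772, minus strand), was among the most abundant transcripts of these cells. TB libraries were at 1274, 1270 and 1257 FPKM and PIF libraries at 1118, 1275 and 965. DIF libraries were at 1168, 1326 and 1301 FPKM and Met libraries at 1236, 1131 and 1199. The groups overlapped, except that all Met values lay below the TB values.

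Mean Ckb levels were 1267 ± 8.98 FPKM in TB, 1265 ± 85.1 in DIF, 1189 ± 53.3 in Met and 1119 ± 155 in PIF (SD, n = 3), the highest 1.13 times the lowest. Ckb held place 16 of the tested genes by mean FPKM and took 0.285 to 0.388% of all reads. On the log2(FPKM + 1) scale PIF differed from TB by -0.19 (SE 0.09) and Met from TB by -0.09 (SE 0.09). The level of Ckb was 34.6 ± 3.24 times that of Slc6a8 in TB, 19.2 ± 2.31 times in PIF, 42.6 ± 2.38 times in DIF and 39.1 ± 4.35 times in Met. Kinase RNA thus exceeded transporter RNA in every group, by least in PIF.

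The other kinases were at the edge of detection. Ckm (chromosome 7, 19138701 to 19156766, plus strand) had 2 reads in 1 Met library (0.0375 FPKM) and 0 in the other 11. Ckmt1 (chromosome 2, 121188195 to 121194218, plus strand) had 2 reads in 1 PIF library (0.0511 FPKM) and 0 elsewhere. Ckmt2 (chromosome 13, 92001506 to 92025004, minus strand) had 1 read in 1 PIF and 1 in 1 DIF library (0.0367 and 0.0404 FPKM).

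A count of 0 allows up to 3 reads, for counting error only, which is 0.0560 to 0.0657 FPKM for Ckm, 0.0654 to 0.0766 for Ckmt1 and 0.110 to 0.129 for Ckmt2. Every library was under that limit, so no group difference is given for these genes. Ckb had 746082 reads over the 12 libraries, against 2 for each of the other kinases. No gene of the table overlaps Gatm, Gamt, Slc6a8 or Ckb, whereas Ckm, Ckmt1 and Ckmt2 each overlap a gene on the opposite strand. Of 19 skeletal and heart muscle genes, the tissues of Ckm and Ckmt2, 2 were tested and 7 were at 0 in all libraries (Myh1, Myh2, Myh4, Myod1, Myog, Tnnc2 and Tnni2). The tested ones were Tnnt2, at 5.58 to 7.92 FPKM over the libraries, and Mylpf, at 0.666 to 2.06.

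For PIF against TB, 1 of the 4 measured genes was higher without overlap and 2 were lower, where 30.7% of all tested genes did not overlap. For Met against TB, 1 was higher and 2 were lower (background 33.1%), and for DIF against TB 1 was lower (29.2%). For DIF against PIF, 2 were higher and 1 was lower (31.8%), for Met against PIF likewise (32.2%), and for Met against DIF 1 was higher (22.9%). The genes were chosen with these levels known, and nothing is read from the counts.

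Profiles most like each gene were ranked by Pearson's r of log2(FPKM + 1) over the 12 libraries, which share the same 4 groups. For Gatm they were Mtmr7 (r = 0.97), Klhl1 (0.97), Sppl2a (0.96) and Tmem33 (0.95). Mtmr7, a myotubularin-related phosphatase, was at 2.27 ± 0.293 FPKM in Met and 0.643 ± 0.0630 in TB, and Sppl2a, an intramembrane protease, at 12.8 ± 0.377 and 10.0 ± 0.178. Both were at far lower ratios of Met to TB than Gatm.

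For Slc6a8 the most similar were Arhgap27 (r = 0.98), Zc3hav1 (0.98), Atp6v0c (0.98) and Tcirg1 (0.98), the last pair being subunits of the vacuolar proton pump. Tcirg1 was at 20.0 ± 0.946 FPKM in PIF, 13.5 ± 0.363 in TB, 11.5 ± 1.22 in DIF and 11.1 ± 0.355 in Met. For Gamt they were Fabp3, a fatty acid binding protein (0.95), Rnase4 (0.94), Insig2 (0.94) and Cavin1, a coat protein of caveolae (0.94). Fabp3 was at 10.1 ± 1.41 FPKM in PIF and 43.5 ± 5.23 in DIF, a wider span than that of Gamt. For Ckb they were Higd2a (0.90), Park7 (0.89), Naxe (0.88) and Calm3 (0.88). Of 10645 genes compared, 188 were over r = 0.9 with Slc6a8, 38 with Gatm, 31 with Gamt and 1 with Ckb. Among the creatine genes themselves, Gamt and Slc6a8 ran in opposite order (r = -0.92) and Gatm and Gamt had an r of 0.33.

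Genes within 500000 bases of Gatm were examined in a window set after its level was seen. In limma, a linear model with moderated variances fitted to log2(FPKM + 1) of all tested genes, 3 of the 10 tested neighbours were higher in Met than in TB and 1 was lower at a Benjamini-Hochberg adjusted p under 0.05, where 5.32% of all tested genes were higher and 4.63% lower. AA467197, at 37.1 kb, stood at 7.72 ± 2.26 FPKM in TB and rose to 28.6 ± 6.35 in Met (by 1.77 on the log2 scale, SE 0.26, limma adjusted p = 0.000941). It was also higher in DIF, where Gatm overlapped TB, at 35.4 ± 9.80 FPKM (limma adjusted p = 0.000394 against TB).

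The closest tested neighbour of Gatm, Spata5l1 at 19.3 kb, was at 2.51 ± 0.173 FPKM in Met and 2.52 ± 0.284 in TB (limma adjusted p = 0.991). Slc30a4, a zinc transporter, rose by 0.38 on the log2 scale (limma adjusted p = 0.0343) and Sqor, sulfide quinone oxidoreductase, by 0.42 (limma adjusted p = 0.0284). Both calls ended without any 1 of TB replicates 1, 2 and 3 and Met replicates 2 and 3, with limma adjusted p up to 0.126 and 0.110. Slc30a4 was as high in PIF, the group with the least Gatm, as in Met. Its mean was 54.99 ± 2.49 FPKM in PIF, 54.75 ± 5.57 in Met and 41.75 ± 1.82 in TB. Sord, sorbitol dehydrogenase, fell from 30.9 ± 0.760 to 23.0 ± 1.56 FPKM (limma adjusted p = 0.00157). Around Slc6a8, 20 tested neighbours lay in a window of the same size. For PIF against TB, limma called 2 of them higher and 1 lower, where 7.52 and 6.58% of all tested genes were.

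**Figure D3:**
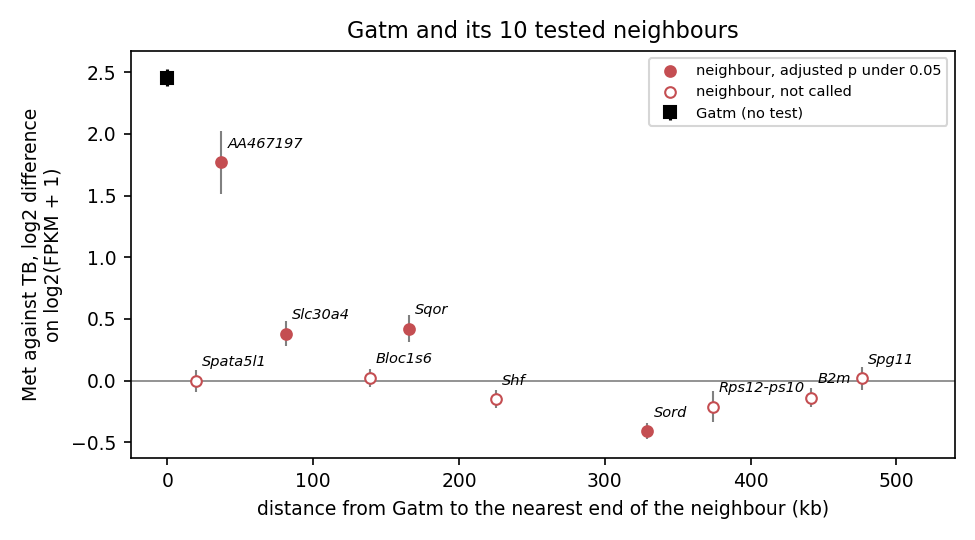
Difference of Met from TB on the log2(FPKM + 1) scale, with SE, against distance from Gatm in kb, for Gatm (no test) and its 10 tested neighbours. Gatm is at 2.46 and AA467197 at 1.77, and the other neighbours lie between -0.41 and 0.42.

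Around the creatine genes, 109 genes in 8 lists of connected metabolism were examined, of which 74 were tested; they were picked by function with earlier results of these data known. The moderated F test of limma over the 4 groups called 33 of the 74, where 24.8% of all tested genes were called. Against TB, 15 were higher and 9 lower in PIF (background 7.52 and 6.58%, together 14.1%), 8 and 8 in DIF (4.26 and 4.36%, together 8.62%) and 10 and 9 in Met (5.32 and 4.63%, together 9.94%). These 3 comparisons share the TB libraries. For DIF against PIF, 11 were higher and 20 lower (background 9.03 and 9.85%, together 18.9%), for Met against PIF 11 and 16 (8.85 and 8.8%, together 17.6%) and for Met against DIF 4 and 2 (2.36 and 1.5%, together 3.86%). The 6 for Met against DIF became 3 without TB replicate 2, DIF replicate 1, DIF replicate 2 or Met replicate 3. The 24 calls for PIF became 13 when TB replicate 2 or PIF replicate 1 was left out and 14 when TB replicate 3 was, the 16 for DIF became 10 without TB replicate 2 or TB replicate 3, and the 19 for Met became 12 without TB replicate 2.

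Genes that supply arginine and glycine, the substrates of Gatm, were mostly higher in PIF and lower in DIF and Met. Of 11 tested of 12 listed, 10 were called over the 4 groups by limma, all but Shmt1 (adjusted p = 0.0944). Over all tested genes, 24.8% were called. Against TB, 7 rose and 0 fell in PIF (Slc7a1, Slc7a3, Slc6a9, Ass1, Psph, Shmt2 and Gldc), with a list median of 0.37 on the log2 scale. In DIF 1 rose and 6 fell (Slc7a3, Phgdh, Psat1, Psph, Shmt2 and Gldc; median -0.36), and in Met 1 rose and 6 fell (Slc7a3, Asl, Phgdh, Psat1, Psph and Shmt2; median -0.24). The medians of all tested genes were 0.00, -0.00 and -0.00. Of all tested genes, 7.52% rose and 6.58% fell in PIF, 4.26 and 4.36% in DIF and 5.32 and 4.63% in Met. The PIF count became 3 without TB replicate 2 and 2 without TB replicate 3 or PIF replicate 1, all higher. The DIF and Met counts stayed at 6 to 7 under every alternative run for this list. The spread of the compared groups alone was not run for it.

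Slc7a3, a cationic amino acid transporter that takes up arginine, was at 4.56 ± 0.416 FPKM in PIF, 2.01 ± 0.0856 in TB, 0.621 ± 0.136 in Met and 0.783 ± 0.0710 in DIF (SD, n = 3). It rose in PIF (log2 fold change 0.88, SE 0.09) and fell in Met (-0.89), with limma adjusted p of 9.90e-05 and 4.49e-05. Gldc, which breaks glycine down and so runs against the name of the list, was at 6.03 ± 0.261 FPKM in PIF, 3.06 ± 0.268 in TB, 3.11 ± 0.0858 in Met and 1.42 ± 0.239 in DIF. It rose in PIF and fell in DIF (limma adjusted p = 0.000146 and 0.000140).

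Psph, the last enzyme of serine synthesis, went from 17.7 ± 0.429 FPKM in TB to 11.5 ± 1.28 in DIF and 11.5 ± 0.839 in Met (limma adjusted p = 0.000613 and 0.000499). Ass1, argininosuccinate synthase, on the route to arginine, was the gene that rose in DIF and Met. Its level was 62.6 ± 5.36 FPKM in PIF, 48.3 ± 2.86 in TB, 79.3 ± 0.812 in Met and 130.1 ± 14.7 in DIF. Its log2 fold change against TB was 1.41 in DIF and 0.71 in Met, with limma adjusted p of 1.86e-06 and 0.000276. In Met, the group with the most Gatm, Slc7a3 and Psph were thus below TB and Ass1 was above it.

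**Figure D4:**
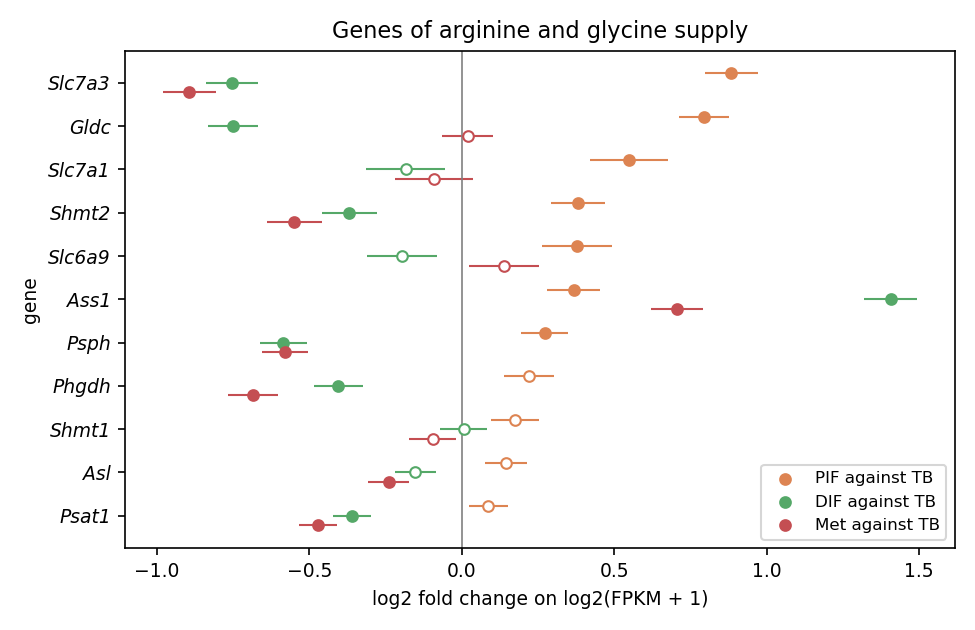
log2 fold change against TB on the log2(FPKM + 1) scale, with SE, of the 11 tested genes of arginine and glycine supply in PIF, DIF and Met, with filled points where the limma adjusted p is under 0.05. Ass1 stands at 1.41 in DIF and 0.71 in Met, while 6 genes of the list fell in each of these groups.

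A list of genes around ornithine, the by-product of the Gatm reaction, and arginine had 4 of 9 tested members called over the groups, of 14 listed. The genes called were Oat, Odc1, Amd1 and Aldh18a1, and not every gene of the list uses ornithine or arginine itself. Over all tested genes, 24.8% were called. Against TB, 2 rose and 1 fell in PIF, where 7.52 and 6.58% of all tested genes did. Odc1, ornithine decarboxylase, rose there from 84.6 ± 2.94 to 108 ± 5.02 FPKM (limma adjusted p = 0.0123), and Oat, ornithine aminotransferase, fell from 102 ± 3.98 to 85.4 ± 1.56 (limma adjusted p = 0.0123, and 0.0612 without TB replicate 2). Aldh18a1, which makes the precursor of proline and ornithine, fell in Met from 26.1 ± 0.887 to 18.2 ± 0.430 FPKM (limma adjusted p = 0.000598). Arg1, arginase 1, reached at most 0.0740 FPKM.

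The methyl donor cycle, which feeds Gamt, had 5 of 11 tested genes called over the groups, of 17 listed. Over all tested genes, 24.8% were called. In PIF, 1 rose and 3 fell against TB, where 7.52 and 6.58% of all tested genes did. Mat2a, which makes S-adenosylmethionine, rose from 54.3 ± 0.638 to 64.0 ± 1.61 FPKM (limma adjusted p = 0.00688). Adk, adenosine kinase, fell from 20.6 ± 1.16 to 15.2 ± 1.43 FPKM (limma adjusted p = 0.00359), and Nnmt, another methyltransferase, from 32.8 ± 1.55 to 24.0 ± 3.08 (limma adjusted p = 0.0103). Gamt was lowest in the same group. Nnmt was as low in Met, at 23.9 ± 2.84 FPKM (limma adjusted p = 0.011 against TB, and 0.052 without TB replicate 2), where Gamt overlapped TB.

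Of 9 related solute carriers, Slc6a6 and Slc6a15 were tested and both were called over the groups, as were 24.8% of all tested genes. Slc6a6, the taurine transporter, was at 46.1 ± 5.66 FPKM in PIF, 37.1 ± 4.06 in TB, 64.9 ± 1.39 in Met and 53.3 ± 3.52 in DIF (limma adjusted p = 0.000199 for Met against TB). Slc6a15, a carrier of neutral amino acids, was at 9.08 ± 0.897 FPKM in Met and 3.97 ± 0.334 in DIF (limma adjusted p = 6.12e-05). Both carriers of this list were thus highest in Met, unlike Slc6a8. Slc6a9, an SLC6 carrier counted with arginine and glycine supply, was highest in PIF, as Slc6a8 was. It was at 11.0 ± 2.03 FPKM in PIF, 8.16 ± 0.938 in TB and 9.06 ± 0.353 in Met (limma adjusted p = 0.0478 for PIF against TB). Slc16a12, another creatine carrier, was at 0 in every library.

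Adenylate kinases and genes of AMP sensing, which act on the same energy pool as Ckb, had 6 of 15 tested genes called over the groups, of 20 listed. Over all tested genes, 24.8% were called. Ak1, the cytosolic adenylate kinase, rose from 46.9 ± 1.33 FPKM in TB to 62.4 ± 5.59 in DIF and 64.2 ± 4.78 in Met (limma adjusted p = 0.00806 and 0.00338). Ampd3, an AMP deaminase, rose in PIF from 12.5 ± 0.179 to 21.8 ± 1.63 FPKM (limma adjusted p = 5.87e-05). Ckb was more abundant than either in every group.

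Mitochondrial nucleotide exchange, beside which mitochondrial creatine kinases work, had 1 of 12 tested genes called over the groups, of 13 listed. Over all tested genes, 24.8% were called. The gene called was Vdac2, an outer membrane channel, at 87.1 ± 4.97 FPKM in PIF and 69.2 ± 2.78 in Met (limma adjusted p = 0.00369). Of ATP-driven ion pumps, which spend ATP, 3 of 8 tested genes were called, of 15 listed, beside 24.8% of all tested genes. Atp1b1, a subunit of the sodium pump, was at 2.90 ± 1.02 FPKM in PIF, 6.14 ± 0.395 in TB, 11.0 ± 0.782 in Met and 12.6 ± 0.530 in DIF, with limma adjusted p of 0.00232, 0.00243 and 0.00705 for PIF, DIF and Met against TB. Atp2a2, the calcium pump of the endoplasmic reticulum, rose in PIF from 21.4 ± 1.47 to 39.0 ± 5.01 FPKM (limma adjusted p = 0.000341). Of 9 regulators of mitochondrial energy genes, 6 were tested and 2 were called over the groups, Esrrg and Gabpa (24.8% over all tested genes). Esrrg, a nuclear receptor, was at 0.403 ± 0.0599 FPKM in TB and 0.885 ± 0.198 in DIF (limma adjusted p = 0.0233, and up to 0.0972 without TB replicate 2, TB replicate 3, DIF replicate 1 or DIF replicate 3).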

How the data were processed

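RNA of 12 libraries was sequenced as paired reads of 150 bases. The submitters' processing notes name fastp, HISAT2 2.0.5 and featureCounts 1.5.0-p3; no source used here gives the genome build, annotation or use of strand. The authors deposited FPKM per gene for 56748 genes. FPKM times gene length came out as whole multiples of 1 step per library for 100% of values (tolerance 0.001), so reads were rebuilt from it, 15545322 to 18366700 per library, and give the depth.

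Samples were grouped by the labels. Genes with a mean of at least 0.5 FPKM over the 12 libraries (12661) were fitted with limma 3.58.1 in R 4.3.3 on log2(FPKM + 1), with a variance trend, all 4 groups sharing 1 estimate of the spread. The pseudocount of 1 understates changes of low genes. P-values were Benjamini-Hochberg adjusted over all tested genes, and the threshold was 0.05. The fit was tested on simulated data. No libraries were duplicates: at most 1.82% of genes had equal counts in a pair of libraries.

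The creatine genes and all lists were chosen with earlier results of these data known. Up to 4 linked genes per list were selected by rank of the F test, and similar profiles as the 4 with the highest r per gene. Of the selected linked genes, Amd1, Mtr, Ak4, Prkag2 and Atp2b4 are not given with levels above. Some other linked genes, such as the untested Arg1 and Slc16a12, were named outside this rule. Alternatives were another pseudocount, other filters, quantile normalization, a replicate block, the spread of the compared groups alone, each library left out, and voom on rebuilt reads, which was chosen after seeing the data. The neuron and glia marker list is not reported here.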

Additional observations from a re-analysis of the deposited data

How the results depend on the processing

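For the linked genes selected by the F test and the called neighbours, no called difference changed direction under the alternatives run. The creatine genes, which carry no test, were compared by the size of their differences. For all other genes only counts were compared. With the spread taken from the compared groups alone, limma called fewer genes for PIF against TB (1132, against 1785 with all groups), DIF against TB (972, 1091), DIF against PIF (1497, 2390), Met against PIF (1541, 2234) and Met against DIF (300, 489), and more for Met against TB (1461, 1259); the cause was not tested. The log2 difference of Gatm in Met was larger with a pseudocount of 0.1, at 2.71 against TB, 2.99 against PIF and 2.69 against DIF, because a smaller pseudocount shrinks low values less. With voom it was 2.77, 3.03 and 2.72, and DIF differed from PIF by 0.32; the cause was not tested.

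Leaving out each library in turn, limma called 2377 to 3118 genes over the 4 groups, 958 to 1843 for PIF against TB, 589 to 1264 for DIF against TB, 793 to 1467 for Met against TB, 1822 to 2384 for DIF against PIF, 1624 to 2298 for Met against PIF and 234 to 595 for Met against DIF. Of the linked genes it called 28 to 34, 13 to 24, 10 to 17, 12 to 20, 25 to 31, 21 to 27 and 3 to 8 in the same order. The arginine and glycine supply genes called for PIF against TB ranged from 2 to 7 when single libraries were left out.

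The main fit used no pairing by replicate number. Same-numbered libraries had correlations of deviations from -0.20 to 0.33 (median 0.05), with 5 of 18 over 0.1. Libraries with other numbers had -0.33 to 0.32 (median -0.03), with 8 of 36 over 0.1. The best correlation of 6 of 12 libraries was with their own number. Whether the numbers mark pairs was not tested. With the number as a replicate block, 3323 genes were called over the 4 groups, against 3135 without it. For the 6 comparisons in the order above, 1901, 1226, 1317, 2562, 2342 and 537 were called with it. Of the linked genes, 35, 24, 16, 18, 33, 27 and 6 were called.

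The planned edgeR test on rebuilt reads was not run, because the deposited unit is FPKM; voom was used instead. Depth limits what can be said of Ckm, Ckmt1 and Ckmt2, which had at most 2 reads in any library.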
